A study of Homo sapiens with 6 samples.

Results

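The miRNA biogenesis and silencing machinery was followed as 10 genes of the deposited gene table, chosen by their symbols: the 4 Argonaute genes AGO1, AGO2, AGO3 and AGO4, the 3 GW182 genes TNRC6A, TNRC6B and TNRC6C, the nucleases DROSHA and DICER1, and the export receptor XPO5. All 10 were among the 14959 genes listed. Cells of UM-SCC1, an established line from a human squamous carcinoma of the head and neck, were transfected with mimics of miR-204-5p (n = 3) or with control mimics (n = 3), from independent experiments, and total RNA was collected at 48 h. A mimic is a synthetic small RNA duplex that enters the silencing machinery as a mature miRNA would, so both groups carried transfected duplex RNA, and no untransfected cells were compared. The line, the transfection and the time were shared by both groups, which makes the transfected sequence the only labelled difference. Each library gave 1 value per gene in FPKM, a count of sequenced fragments scaled for transcript length and for the mapped fragments of the library.

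A miRNA is made in steps. The nuclease DROSHA cuts the hairpin out of the primary transcript in the nucleus, XPO5 carries the hairpin to the cytoplasm, and DICER1 cuts it to a short duplex. A strand of the duplex is then held by an Argonaute protein, which finds mRNAs by pairing with the seed of the miRNA, and a GW182 protein bound to Argonaute recruits the enzymes that remove the poly(A) tail and the cap. A transfected mimic is already a short duplex, so it needs Argonaute and GW182 proteins but neither DROSHA nor XPO5.

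The mature sequence that the mimics represent is shown with its seed (bases 2 to 8) in capitals. It was taken from RefSeq (GRCh38.p14), where it lies on the minus strand at chr9:70810031-70810052.

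hsa-miR-204-5p: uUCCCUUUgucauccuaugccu

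Matches to this seed were sought in the longest 3'UTR annotated for each gene in GENCODE 29, a feature that the choice of genes did not use. The letters searched along the transcript strand were AAAGGGAA (8mer), AAAGGGA (7mer-m8) and AAGGGAA (7mer-A1), each gene being classed by its best match. The AAGGGA core is common to all of them. Of the 10 genes, 6 held a match of 7 or more bases: AGO1, AGO2, AGO3, AGO4, TNRC6B and XPO5. DICER1 held only the 6-base core, and TNRC6A, TNRC6C and DROSHA held none. The sites below are the best-matching ones of 3 of the genes that fell (AGO3, AGO4 and TNRC6B) and the one nearer the stop codon of XPO5, the gene with sites that was higher with miR-204-5p mimics. The sites of AGO2 and AGO1 are given by number only. Each window spans 30 bases, written 5′ to 3′ along the transcript, with the match in capitals.

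AGO3, plus strand, chr1:36061225-36061254, 8mer: ctcacacacacacacAAAGGGAAaaattat
AGO3, plus strand, chr1:36062094-36062123, 8mer: atagtaccaatgtccAAAGGGAAatgtaac
AGO4, plus strand, chr1:35854981-35855010, 7mer-m8: ctttcttgtccaaacAAAGGGAgttgctct
TNRC6B, plus strand, chr22:40325989-40326018, 8mer: ttccatcataagcttAAAGGGAAaaaaact
TNRC6B, plus strand, chr22:40330189-40330218, 8mer: tttcttttttttcaaAAAGGGAAattcctc
XPO5, minus strand, chr6:43523664-43523693, 7mer-m8: tactaaagtatcaagAAAGGGAgttagggc

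All of these sites lie in the last exon of their transcript, which is exon 19 for AGO3, exon 18 for AGO4, exon 21 for TNRC6B and exon 32 for XPO5. AGO2 held 1 8mer and 3 7-base matches, AGO1 held 5 7-base matches, AGO3 and TNRC6B each held 2 7-base matches beside their 8mers, and XPO5 held 2 7-base matches, of which 1 is shown. Several of these 3'UTRs are long: 16755 bases for AGO3, 12567 for TNRC6B, 11888 for AGO2 and 10921 for AGO1, against 4285 for AGO4 and 1538 for XPO5. Long 3'UTRs often hold such a match. Among the genes whose longest 3'UTR was within a factor of 2 of that of AGO2, 79.7% held a match of 7 or more bases and 35.1% an 8mer, and for AGO3 these shares were 89.4% and 46.8%. For XPO5 the share with a match of 7 or more bases was 28.5%. Over all 14664 genes with a 3'UTR, 8.60% held an 8mer, 9.83% a 7mer-m8 and 8.66% a 7mer-A1 as best match.

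The table names a single transcript per gene, and it does not always carry the sites. The transcripts listed for AGO2, AGO4 and XPO5 contain their sites, whereas those listed for AGO1 (3996 bases), AGO3 (1726 bases) and TNRC6B (415 bases) are shorter than the longest annotated ones (13708, 19687 and 18279 bases) and end before them. The value of a gene was not always that of its listed transcript alone. Values had at most 6 decimals in every library for 99.8% of 1175 genes with 1 annotated transcript and for 3.28% of 10292 genes with 5 or more, so values of genes with several transcripts appear to be combined over transcripts, in a way not given in the sources used here. Levels of different genes are therefore compared on the authors' FPKM scale with the effective length behind each unknown.

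The libraries resembled each other in scale. FPKM values summed to 276822 to 291864 per library, and 14689 to 14798 genes were above 0. Fragment counts are not part of the table. For low values of genes with 1 transcript, a smallest step was chosen by its fit to those same values. Of the values, 18.7% to 30.7% lay within 0.02 of a whole multiple of it. At a step that was not fitted, at most 4% did, a comparison that cannot test the chosen step. If that step holds, the relative depth of the libraries lay between 0.794 and 1. The Spearman correlation across genes was 0.990 to 0.991 within groups and 0.973 to 0.976 between groups. The squamous markers chosen for a check of the cell type were all detected (8 of 8, summed FPKM of 801 to 891 with miR-204-5p mimics and 927 to 951 in the controls). By the criterion given in the next paragraph, 5 of them fell and 2 rose, where 16.8% of all genes were lower and 23.9% higher. TP63 was 51.1% lower and DSG3 55.9% lower, while KRT6A (2.90 and 1.24 FPKM) and SFN (350 and 292 FPKM) rose. SFN and KRT17 (242 and 272 FPKM) made up most of the sum. Among markers of other cell types, PTPRC (0.293 and 0.138 FPKM) and PECAM1 (0.142 and 0.152 FPKM) were low, and COL3A1, DCN, PDGFRA and KDR were not listed. PTPRC was higher in all libraries with miR-204-5p mimics but was not called. COL1A1 (9.46 and 8.37 FPKM) and LYZ (4.14 and 4.13 FPKM) were not low and were not called. COL1A2 (0.605 and 0.322 FPKM), PDGFRB (0.359 and 0.177 FPKM) and VWF (0.457 and 0.299 FPKM) rose. No listed marker was at 0 in all libraries. CD14 (12.4 and 16.3 FPKM) and CD68 (9.60 and 10.8 FPKM) made up most of the immune sum, and CD14 fell. Summed FPKM of the 6 immune markers was 25.7 to 28.996 with miR-204-5p mimics and 31.2 to 32.5 in the controls, of the 4 fibroblast markers listed 9.81 to 11.6 and 8.58 to 9.41, and of the 3 endothelial markers listed 0.590 to 0.767 and 0.443 to 0.502. The part of these shifts in the results below was not tested. Bulk RNA cannot tell fewer cells with a transcript from less of it per cell.

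The mRNAs of AGO2, AGO3, AGO4 and TNRC6B were lower with miR-204-5p mimics, while those of TNRC6A and XPO5 were higher. The groups were compared by limma on log2(FPKM + 1) over all 14959 genes, with the Benjamini-Hochberg adjustment and a threshold of 0.05, and log2 fold changes (log2FC, with their standard errors, SE) are on this scale, which understates the change of low genes. Among the 10 genes, 4 fell (AGO2, AGO3, AGO4 and TNRC6B), 2 rose (TNRC6A and XPO5) and 4 did not pass (AGO1, TNRC6C, DROSHA and DICER1). Over all genes 16.8% were lower and 23.9% higher by the same criterion, 40.8% in all (2520 and 3578 genes). This split depended on scaling. With FPKM scaled to equal sums 2885 genes were lower and 3080 higher, and with equal medians 2948 and 3106. Quantile normalization gave 3026 and 3043. The median of the 10 genes was a log2FC of -0.27, against 0.03 over all genes. For 7 of the 10 the libraries of the groups lay apart, with 5 below (AGO2, AGO3, AGO4, TNRC6B and DROSHA) and 2 above, where 22.7% and 30.9% of all genes, or 53.6% together, did not overlap. An exact permutation test of 3 libraries against 3 cannot go below p = 0.1, so single genes rest on the fit across all genes.

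**Figure D1:**
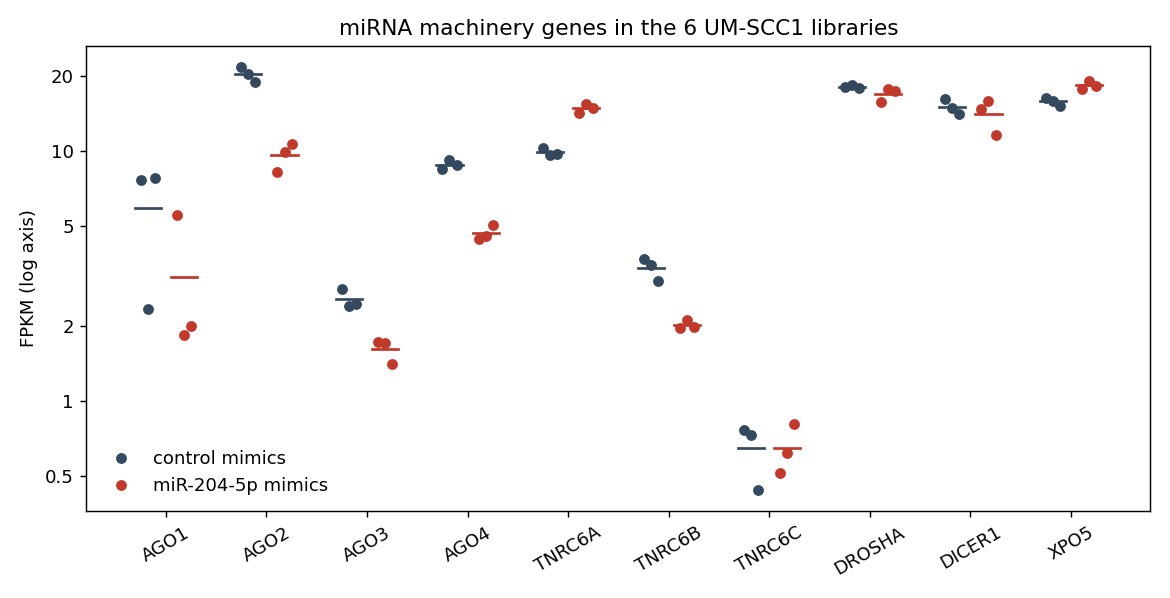
FPKM (log axis) of the 10 miRNA machinery genes in each UM-SCC1 library, with the controls in dark blue and the miR-204-5p mimics in red. Points are single libraries and bars are group means. AGO2, AGO4, AGO3 and TNRC6B lie lower in all 3 libraries with miR-204-5p mimics, TNRC6A and XPO5 lie higher, and AGO1 varies within both groups.

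AGO2, on the minus strand of chromosome 8 (140520156 to 140635619, GRCh38, the whole gene in GENCODE 29 as for the genes below), encodes the only human Argonaute widely known to slice a fully paired target. Its FPKM was 8.23, 9.94 and 10.7 with miR-204-5p mimics and 21.8, 20.4 and 19.0 in the controls. All miR-204-5p libraries were far below all controls. The means were 9.63 ± 1.28 and 20.4 ± 1.38 (SD, n = 3), 52.7% lower, and the log2FC was -1.01 with an SE of 0.0979 (limma adjusted p = 0.000490). It was the largest change of the 10 genes and stood at percentile 0.709 of all genes by log2FC, counted from the most negative.

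AGO4, AGO1 and AGO3 lie next to each other in that order on the plus strand of chromosome 1 (AGO4 from 35808172 to 35857890, AGO1 from 35869808 to 35930528 and AGO3 from 35930718 to 36072500, as whole genes in GENCODE 29), and their proteins are generally regarded as silencing without slicing in most settings. AGO4 was at 4.47, 4.55 and 5.04 FPKM with miR-204-5p mimics and at 8.49, 9.26 and 8.78 FPKM in the controls. The groups lay well apart, with 47.0% less AGO4 with miR-204-5p mimics (4.69 ± 0.311 against 8.85 ± 0.389 FPKM, SD, n = 3). The log2FC was -0.79 with an SE of 0.0637 (limma adjusted p = 0.000258). AGO3 was lower in level, at 1.72, 1.71 and 1.40 FPKM with miR-204-5p mimics and 2.81, 2.39 and 2.43 FPKM in the controls. It was 36.8% lower with miR-204-5p mimics, again without overlap, and its log2FC was -0.44 with an SE of 0.0807 (limma adjusted p = 0.00579).

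AGO1 could not be read with the same certainty. Its FPKM was 5.58, 1.83 and 1.98 with miR-204-5p mimics and 7.67, 2.32 and 7.82 in the controls. Replicate 1 of the miR-204-5p mimics and replicates 1 and 3 of the control mimics were high, the other libraries were low, and the groups overlapped. The log2FC was -0.73 (SE 0.480, 95% confidence interval -1.88 to 0.42, limma adjusted p = 0.272), an interval wide enough to hold both the change of AGO2 and none. Its highest library was 4.27 times its lowest, and the longest annotated AGO1 transcript is 3.43 times as long as the listed one. The part of transcript length in this spread was not tested. A coefficient of variation of at least 50% in both groups, as for AGO1, was found for 57 of 11504 genes averaging 1 FPKM or more, or 0.495%. Without control mimics replicate 2 the log2FC was -1.20, and without control mimics replicate 3 it was -0.49, neither with a limma adjusted p-value under the threshold.

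Summed over the family, Argonaute mRNA was 19.99, 18.0 and 19.2 FPKM with miR-204-5p mimics and 40.7, 34.3 and 38.0 FPKM in the controls. The sum with miR-204-5p mimics was 0.505 times that of the controls, and 0.501 times without AGO1 (15.9 ± 1.40 against 31.8 ± 1.44 FPKM, SD, n = 3). The size of this ratio and of the shares below rests on uncertain lengths. The longest annotated transcript is 11.4 times as long as the listed one for AGO3 and 3.43 times for AGO1. AGO2 made up 50.8% ± 8.32 of the sum with miR-204-5p mimics and 54.2% ± 4.72 in the controls, a difference within the spread between libraries. With AGO1 left out, AGO2 made up 57.1%, 61.4% and 62.5% of the sum with miR-204-5p mimics and 65.8%, 63.6% and 62.9% in the controls. These shares did not overlap, but the nearest libraries were close (62.5% and 62.9%). The 4 paralogues shared no stretch of 50 bases with each other in any annotated transcript, so reads of that length or longer would not have been exchanged between them by identity.

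**Figure D2:**
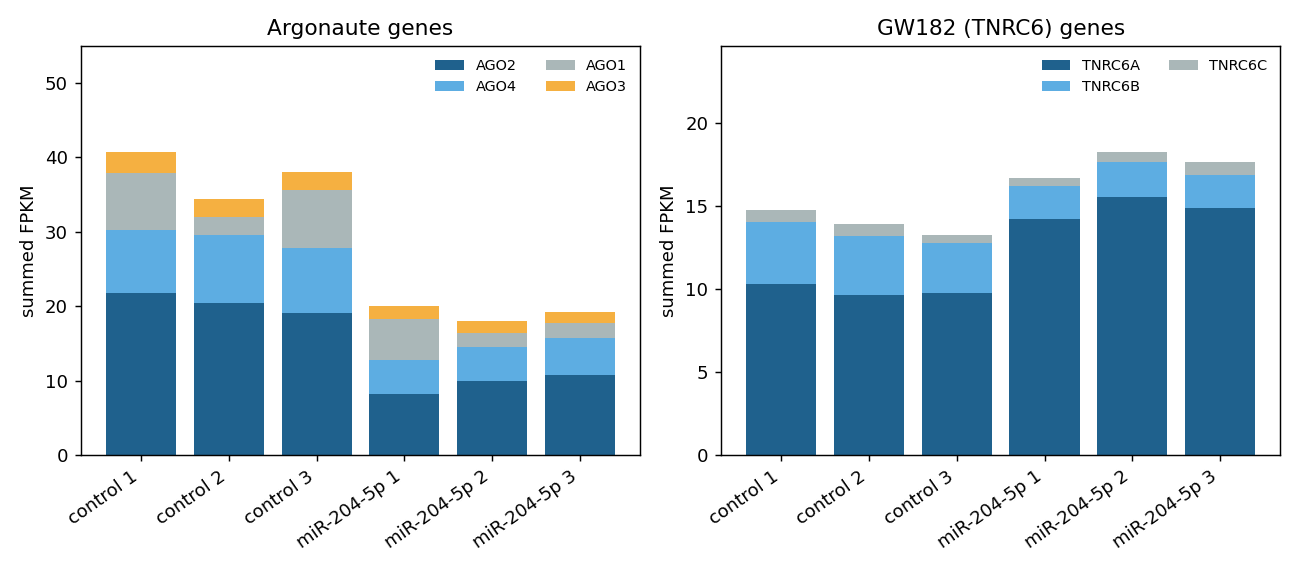
Summed FPKM of the Argonaute genes (left) and the GW182 genes (right) in each library, stacked by gene, with the 3 control mimics first and the 3 miR-204-5p mimics after them. The Argonaute sum falls from 34.3 to 40.7 FPKM to 18.0 to 19.99 FPKM, while the GW182 sum rises from 13.2 to 14.8 FPKM to 16.7 to 18.2 FPKM, most of it TNRC6A in both groups.

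The GW182 proteins are scaffolds that bind Argonaute through tryptophan-containing motifs and bring in the CCR4-NOT and PAN2-PAN3 deadenylases. Their 3 mRNAs went different ways. TNRC6A, on the plus strand of chromosome 16 (24610209 to 24827632), was at 14.2, 15.5 and 14.9 FPKM with miR-204-5p mimics and 10.3, 9.65 and 9.77 FPKM in the controls. All libraries with miR-204-5p mimics were higher, by 49.996% on average (14.9 ± 0.644 against 9.91 ± 0.354 FPKM, SD, n = 3). The log2FC was 0.54 with an SE of 0.0512 (limma adjusted p = 0.000459).

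TNRC6B, on the plus strand of chromosome 22 (40044817 to 40335808), was at 1.95, 2.11 and 1.98 FPKM with miR-204-5p mimics and 3.69, 3.51 and 3.00 FPKM in the controls. All 3 miR-204-5p libraries were lower, by 40.8% on average, and the log2FC was -0.54 with an SE of 0.0773 (limma adjusted p = 0.00216). Its FPKM rests on an uncertain length, since the listed transcript is 1 of 9 annotated for the gene and covers 415 bases.

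TNRC6C, on the plus strand of chromosome 17 (77959240 to 78108835), was the least abundant of the 10 genes. It was at 0.513, 0.617 and 0.804 FPKM with miR-204-5p mimics and 0.759, 0.731 and 0.438 FPKM in the controls. The groups overlapped, and the difference of 0.00 on the log2 scale had a 95% confidence interval of -0.24 to 0.25 (limma adjusted p = 0.978).

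With these changes TNRC6A stood higher relative to TNRC6B in all 3 libraries with miR-204-5p mimics. The size of the ratio and of the shares below rests on the uncertain length behind TNRC6B. The ratio of TNRC6A to TNRC6B in FPKM had a geometric mean of 7.38 with miR-204-5p mimics and 2.92 in the controls, and the ratios of the 2 groups did not overlap (p = 0.1 in a two-sided exact permutation test, which can go no lower here; 0.220 after Benjamini-Hochberg adjustment over the 11 ratios within families that were compared). A ratio taken within a library does not depend on how libraries are scaled. TNRC6A made up 84.8% ± 0.520 of the GW182 sum with miR-204-5p mimics and 71.1% ± 2.48 in the controls. The sum was 1.26 times as high with miR-204-5p mimics (17.5 ± 0.782 against 14.0 ± 0.775 FPKM, SD, n = 3).

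Of the genes that make and export hairpins, XPO5 was higher with miR-204-5p mimics, while DROSHA and DICER1 did not pass. DROSHA, on the minus strand of chromosome 5 (31400497 to 31532196), was at 15.8, 17.8 and 17.4 FPKM with miR-204-5p mimics and at 18.2, 18.4 and 17.9 FPKM in the controls. All 3 libraries with miR-204-5p mimics were below the controls, the nearest by a small margin. The difference of -0.09 (95% confidence interval -0.22 to 0.03, limma adjusted p = 0.208) did not pass the threshold.

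DICER1, on the minus strand of chromosome 14 (95086228 to 95158010), was at 14.8, 16.0 and 11.7 FPKM with miR-204-5p mimics and at 16.3, 14.9 and 14.1 FPKM in the controls. The groups overlapped, with replicate 3 of the miR-204-5p mimics the lowest. Its log2FC was -0.10 (95% confidence interval -0.37 to 0.18, limma adjusted p = 0.546), and 0.03 without that library.

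XPO5, on the minus strand of chromosome 6 (43522330 to 43576075), was at 17.8, 19.1 and 18.3 FPKM with miR-204-5p mimics and at 16.4, 16.0 and 15.2 FPKM in the controls. All 3 miR-204-5p libraries were higher, by 16.0% on average, and the log2FC was 0.20 with an SE of 0.0481 (limma adjusted p = 0.0160). This was the weakest of the 6 calls, and it was lost in 3 of 13 alternative fits, among them the fit without miR-204-5p mimics replicate 2 (limma adjusted p = 0.0519) and that with FPKM scaled to equal sums (limma adjusted p = 0.0568). POLR1C, annotated on the opposite strand, shares 348 of the 8522 exonic bases of XPO5 and was higher too (8.51 ± 0.480 against 5.83 ± 0.375 FPKM, SD, n = 3, log2FC 0.48 at a limma adjusted p of 0.00203). Strand use in counting is not given in the sources used here, so reads of those bases cannot be assigned to either gene.

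**Figure D3:**
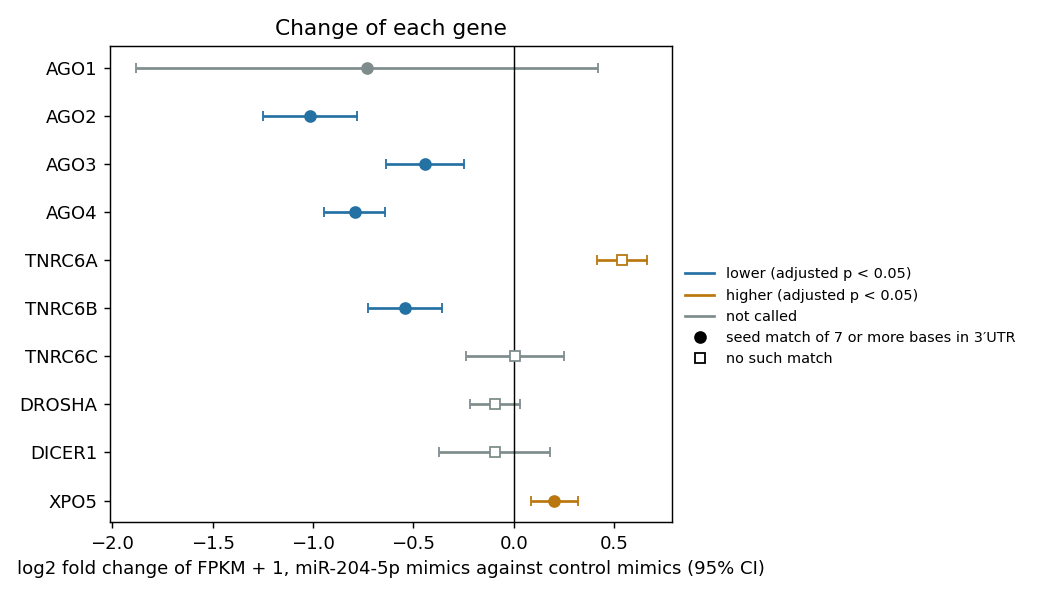
Log2 fold change of FPKM + 1 with its 95% confidence interval for each of the 10 genes (miR-204-5p mimics against control mimics, n = 3 each). Filled circles mark genes with a seed match of 7 or more bases in the longest 3'UTR and open squares those without. AGO2, AGO3, AGO4 and TNRC6B lie left of zero with narrow intervals, XPO5 is the filled circle to the right, and the interval of AGO1 crosses zero.

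Placed in order of level, AGO2 was the most abundant of the 10 mRNAs in the controls (20.4 FPKM), followed by DROSHA (18.2), XPO5 (15.9), DICER1 (15.1), TNRC6A (9.91) and AGO4 (8.85). With miR-204-5p mimics AGO2 ranked 5 of 10 (9.63 FPKM), after XPO5 (18.4), DROSHA (17.0), TNRC6A (14.9) and DICER1 (14.1). AGO1, TNRC6B, AGO3 and TNRC6C held the last 4 places in both groups. The libraries of neighbours in this order overlapped for XPO5 and DICER1 and for AGO1 and TNRC6B in the controls, and for XPO5 and DROSHA, TNRC6A and DICER1, AGO4 and AGO1, and AGO1 and TNRC6B with miR-204-5p mimics. The other neighbours did not overlap.

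Set beside the seed matches, the 4 genes that fell all held a match of 7 or more bases in their longest annotated 3'UTR. The transcripts listed for AGO3 and TNRC6B do not contain these matches. Of the 6 genes with such a match 4 fell, 1 rose (XPO5) and 1 did not pass (AGO1), with a median log2FC of -0.64. Of the 4 genes without one, none fell, TNRC6A rose and 3 did not pass, with a median of -0.04. Among all genes with a 3'UTR, 27.0% of the 3973 with such a match fell and 16.4% rose, and 13.5% of the 10691 without one fell and 27.2% rose. By best match, 33.5% of genes with an 8mer and 25.5% of those with a 7mer-m8 fell. These shares were not matched for 3'UTR length. With 10 genes chosen by name these counts describe the genes and were not tested.

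The genes that work with this machinery were followed as 6 lists of 67 genes, 60 of them in the table, and 15 fell and 11 rose, with a median log2FC of -0.09. The counts of this and of each list below stand against 16.8% of all genes that were lower and 23.9% that were higher. Those shares are of the main fit and lay closer together with the scalings given above. The counts were not tested as lists. The PIWI genes PIWIL1, PIWIL2, PIWIL3 and PIWIL4, relatives of the Argonautes that act mainly in the germline, were not listed, nor were LIN28A and LIN28B, which block maturation of let-7, and the decapping cofactor DCP1B. Of the 18 listed genes with a seed match of 7 or more bases 6 fell and 1 rose, and of the 42 without one 9 fell and 10 rose. Among the listed genes with an 8mer, PRKRA, CNOT1, XRN1 and IPO8 fell. CNOT6 (log2FC -0.02, limma adjusted p = 0.707) and LIMD1 (log2FC 0.12, limma adjusted p = 0.165) held one too and did not pass. CNOT6 and LIMD1 are outside the naming rule and were chosen after their values were seen.

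Among 9 partners of the processing enzymes, 2 fell, 1 rose and 6 did not pass. DGCR8, the RNA-binding partner of DROSHA, was at 7.22 ± 0.804 FPKM with miR-204-5p mimics and 6.87 ± 0.201 in the controls (SD, n = 3, limma adjusted p = 0.607). RAN, the GTPase that drives export by XPO5, was at 141 ± 22.4 and 120 ± 17.8 FPKM (limma adjusted p = 0.254). Of the 2 double-stranded RNA-binding partners of DICER1, TARBP2 was at 8.47 ± 0.661 and 9.43 ± 0.961 FPKM (limma adjusted p = 0.264), and PRKRA, which has an 8mer, fell from 11.8 ± 0.569 to 8.84 ± 0.278 FPKM (log2FC -0.38 at a limma adjusted p of 0.00204). ADAR, which edits double-stranded RNA and has a 7mer-A1, fell slightly (log2FC -0.18 at a limma adjusted p of 0.0199). The helicase DDX17, with only the 6-base core, rose slightly (log2FC 0.10 at a limma adjusted p of 0.0388). DGCR8, RAN and TARBP2 held no match. DDX17 was the 1 partner that rose, and no partner rose in 8 of 13 alternative fits.

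Of 7 chaperones and cochaperones that help load duplexes into Argonaute, 3 rose, none fell and 4 did not pass. HSP90AB1 rose from 420 ± 9.41 to 666 ± 3.76 FPKM (SD, n = 3, log2FC 0.67 at a limma adjusted p of 7.36e-05) and HSP90AA1 from 259 ± 11.2 to 358 ± 24.6 FPKM (log2FC 0.46 at a limma adjusted p of 0.00160). FKBP4, a cochaperone of HSP90, rose from 41.1 ± 1.02 to 67.2 ± 1.36 FPKM (log2FC 0.70 at a limma adjusted p of 6.88e-05). HSP90AB1, HSP90AA1 and FKBP4 held no seed match. The median log2FC of the list was 0.11. HSP90 has many other clients, and the list is not particular to Argonaute.

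The 16 deadenylation genes, which GW182 proteins recruit or which modulate tail removal, included 7 that fell and 2 that rose, with a median log2FC of -0.21. CNOT1, the scaffold of the CCR4-NOT complex and a gene with an 8mer, fell from 55.0 ± 1.66 to 37.1 ± 2.65 FPKM (SD, n = 3, log2FC -0.56 at a limma adjusted p of 0.000655). TOB2, an adaptor of the complex with only the 6-base core, fell from 16.8 ± 0.750 to 10.8 ± 0.810 FPKM (log2FC -0.59 at a limma adjusted p of 0.000755). PAN2, the catalytic subunit of the other deadenylase, rose from 4.29 ± 0.152 to 6.51 ± 0.540 FPKM (log2FC 0.50 at a limma adjusted p of 0.00203). Its partner PAN3 fell from 11.7 ± 0.138 to 8.98 ± 0.173 FPKM (log2FC -0.35 at a limma adjusted p of 0.00123). Neither PAN2 nor PAN3 held a seed match. PAN3 is outside the naming rule and was chosen after its values were seen.

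Of 12 listed genes of translational repression and decapping, 4 fell, 2 rose and 6 did not pass, with a median log2FC of -0.18. DDX6, the helicase that couples CCR4-NOT to decapping and a gene with a 7mer-A1, was at 30.8 ± 1.58 and 31.5 ± 0.921 FPKM (SD, n = 3, limma adjusted p = 0.610). The decapping scaffold PATL1 fell from 40.9 ± 1.88 to 27.2 ± 1.78 FPKM (log2FC -0.57 at a limma adjusted p of 0.000644), and XRN1, the exonuclease that degrades decapped mRNA and a gene with an 8mer, fell from 9.13 ± 0.529 to 6.04 ± 0.142 FPKM (log2FC -0.52 at a limma adjusted p of 0.000799). LSM14A, a P-body protein, rose from 29.4 ± 0.837 to 45.1 ± 2.87 FPKM (log2FC 0.60 at a limma adjusted p of 0.000385). PATL1 and LSM14A held no seed match.

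Of 16 listed genes of Argonaute binding and miRNA turnover, 2 fell, 3 rose and 11 did not pass. FXR2, a relative of the fragile X protein, fell (log2FC -0.28 at a limma adjusted p of 0.00207), as did IPO8, an import receptor that binds Argonaute and has an 8mer (log2FC -0.20 at a limma adjusted p of 0.00737). AJUBA, a LIM protein of P-bodies, rose from 25.6 ± 4.52 to 37.5 ± 6.87 FPKM (SD, n = 3, log2FC 0.53 at a limma adjusted p of 0.0392). ZSWIM8, the ubiquitin ligase adaptor of target-directed miRNA decay, was at 14.1 ± 0.856 and 15.1 ± 0.902 FPKM (limma adjusted p = 0.313), a gene outside the naming rule and chosen after its values were seen. FXR2, AJUBA and ZSWIM8 held no seed match.

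**Figure D4:**
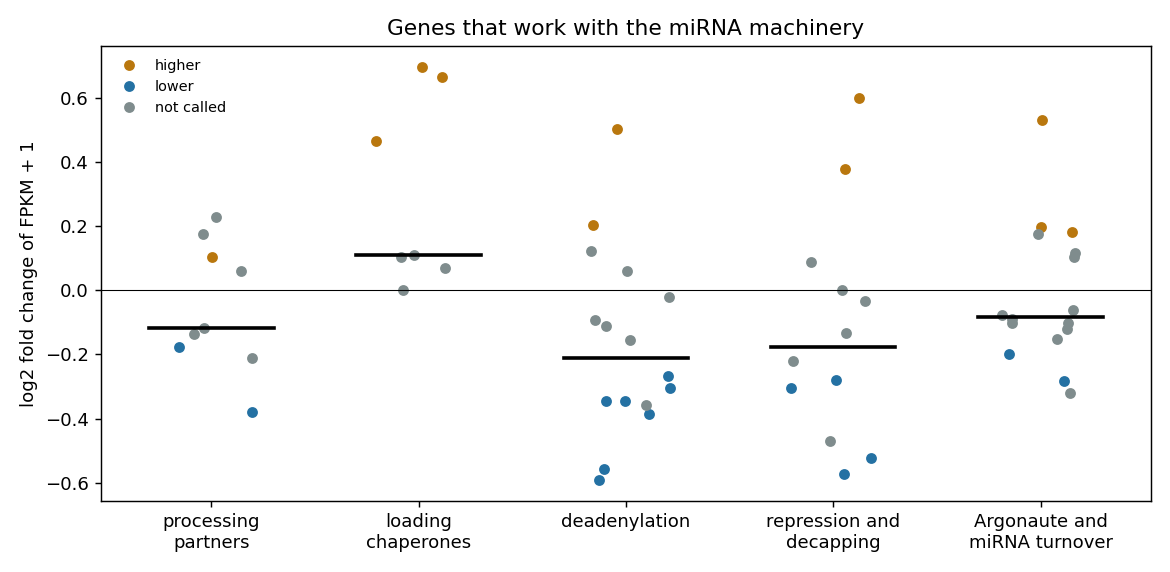
Log2 fold change of FPKM + 1 for each gene of the 5 lists with members in the table, 1 point per gene, coloured by whether it fell, rose or did not pass a limma adjusted p-value of 0.05. Black bars are list medians, from -0.21 for deadenylation to 0.11 for the loading chaperones.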

How the data were processed

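Per the labels, UM-SCC1 cells gave 3 libraries for the miR-204-5p mimics and 3 for the control mimics. The FPKM values were deposited by the authors, with HISAT2, StringTie and hg38 named in the submitters' processing notes, versions and annotation being not given in the sources used here. The authors' own log2 ratios, p-values and FDR from edgeR, in the same table, were not used. The listed transcripts were compared with GENCODE 29 (GRCh38): 14951 of 14959 were found, 14847 with the same coordinates.

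Because FPKM values are not counts, linear models (limma 3.58.1 under R 4.3.3, with an intensity trend in eBayes) were fitted to log2(FPKM + 1) with no filter, two-sided, with the Benjamini-Hochberg adjustment at 0.05. The fit was also run on simulated data with few changed genes. That setting is unlike these data, so the run cannot vouch for the calls here. Remaining steps ran in scipy 1.17.1, pandas 2.3.3 and numpy 2.4.6 (Python 3.11.15). Named were the 10 genes, the direct partners DGCR8, TARBP2, PRKRA, RAN, CNOT1 and DDX6, up to 3 genes per list with the largest change (adjusted p-value under 0.05, mean FPKM of at least 1, no overlap), and the markers. Genes and lists were chosen with earlier results of these data known. Alternatives were a pseudocount of 0.1, a mean FPKM of at least 1, a replicate block, each library left out, 3 scalings, no trend, and other 3'UTRs. Depth per library was only estimated in relative terms, so precision rests on the spread between libraries.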

Additional observations from a re-analysis of the deposited data

How the results depend on the processing

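The calls of AGO2, AGO3, AGO4, TNRC6A and TNRC6B held under all 13 alternative fits, and AGO1, DROSHA and DICER1 passed under none. TNRC6C was not tested with the filter at a mean FPKM of 1. XPO5 had a log2 fold change of 0.16 with equal sums and 0.20 with the replicate block, not passing in either, so that 1 of the 10 genes was higher. Without single libraries, 4 of the 10 genes were lower each time and 1 to 2 higher, 1 without miR-204-5p mimics replicate 2. The log2 fold change of TNRC6C was -0.014 with equal medians, -0.013 with equal sums and -0.052 with quantile normalization, which put the median of all genes at -7.0e-05. Without single libraries it ran from -0.089 to 0.062 for TNRC6C, -0.18 to 0.027 for DICER1, 0.17 to 0.23 for XPO5, -1.20 to -0.49 for AGO1, -1.09 to -0.91 for AGO2, -0.47 to -0.38 for AGO3, -0.84 to -0.76 for AGO4, -0.61 to -0.50 for TNRC6B and 0.51 to 0.57 for TNRC6A. The share of AGO2 in the Argonaute sum differed by -3.47 percentage points, by -6.08 to 1.32 without single libraries, the positive value without miR-204-5p mimics replicate 1. The log2 ratio to the rest of the family differed by -0.52 to 0.40 for AGO1 (below 0 without miR-204-5p mimics replicate 1 or control mimics replicate 2), -0.36 to 0.076 for AGO2 and -0.028 to 0.22 for AGO4. Processing partners called higher numbered 0 with equal medians, equal sums, no trend and the block, 2 with the filter, and 0 to 1 without single libraries (0 without miR-204-5p mimics replicate 1 or 2 or control mimics replicate 1 or 2), where 1 to 3 were lower (1 without control mimics replicate 2 or 3). Turnover genes called lower numbered 4 with equal medians, 4 with equal sums and 5 with quantile normalization. With the block, 1 turnover gene and 1 deadenylation gene were higher, and without single libraries 1 to 3 and 1 to 2 were, while 0 to 1 chaperones were lower, the lowest turnover count coming without control mimics replicate 2 and the shifts in the other lists without control mimics replicate 1. In the 3'UTR of the listed transcript only, 3 of the 10 genes held a match of 7 or more bases. The cause of these shifts was not tested. Same-numbered libraries deviated together with r of -0.108 to -0.0210, so the numbers gave no sign of pairing, and the replicate block called 2097 genes lower and 2999 higher (limma adjusted p of XPO5 = 0.0502). Without fragment counts, how far depth limits single genes was not measured.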
